A study of Homo sapiens with 9 samples.

Results

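In RWPE-1 cells expressing FLAG-ETV1, 7230 called regions of ETV1 overlapped no region called for any of 5 other transcription factor libraries. They are called ETV1-only regions here and make up 29.9% of the 24166 regions to which the 6 peak lists merge. The members were chosen by overlap alone: peaks of all lists sharing at least 1 bp were joined, and a joined region counted as ETV1-only if every peak in it came from the FLAG-ETV1 list. Each of the 7230 regions held a single FLAG-ETV1 peak. Membership therefore rests on the measured peak positions of all 6 lists, and the share of the list that it takes in is a description, with no test.

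The lists came from chromatin immunoprecipitation followed by sequencing (ChIP-seq), with 1 library per factor and no replicate. RWPE-1 cells are prostate epithelial cells that were immortalised and do not form tumours. FLAG-ETV1 and FLAG-ERG were each expressed in them from a retrovirus, and the FLAG tag was precipitated. For ETS1 and GABPA, RWPE-1 cells without retroviral expression were used, with an antibody to each factor. PC3, a prostate carcinoma line also without retroviral expression, gave the lists of ETV4 and JUND, again from antibodies to the factors. Input DNA of both lines and a FLAG precipitation from RWPE-1 without a fusion protein were also sequenced. These 3 libraries have no list used here, so how many ETV1-only regions a FLAG antibody would give without FLAG-ETV1 was not tested. The authors' lists give positions without height, so the depth behind a region is unknown.

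ETV1 is a member of the ETS family, whose proteins share a DNA-binding domain that recognises a GGAA core. With ETV4 and ETV5 it forms the PEA3 subfamily. Chromosomal rearrangements that bring ETV1, ERG or ETV4 under control of an androgen-responsive promoter occur in prostate cancer. GABPA binds ETS sites in many promoters of broadly expressed genes, and ETS1 shares such promoter sites with other family members as well as binding sites of its own. JUND is a subunit of AP-1, a factor whose sites often lie beside ETS sites at enhancers of genes for migration and invasion. Whether the regions lie in promoters, exons or introns, and which DNA sequences they hold, was not analysed here, because the gene table and sequences at hand are on another genome build than the peaks (hg18).

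A factor counts as absent here where its list has no peak, which does not show absence of binding. Regions with no peak of another list formed most of the FLAG-ETV1 list. They were 82.8% of its peaks (Wilson 95% interval 82.0 to 83.5%; all intervals here cover counting error only). The same rule left 90.8% of the GABPA, 72.2% of the ETS1, 69.6% of the ETV4, 67.8% of the JUND and 54.1% of the FLAG-ERG peaks in their own list only. These shares depend on how many peaks each list has. FLAG-ETV1 and GABPA, with the highest shares, were also the longest lists. Of the peaks outside the FLAG-ETV1 list, GABPA supplied 43.2%, ETV4 16.8%, JUND 15.9%, FLAG-ERG 12.4% and ETS1 11.7%. Whether the shares would differ between lists of equal length was not tested. Of the other 1506 FLAG-ETV1 regions, 721 held a FLAG-ERG peak, 482 a GABPA peak, 378 an ETS1 peak, 251 an ETV4 peak and 239 a JUND peak. A further RWPE-1 factor was present in 1271 of them, and 235 had ETV4, JUND or both from PC3 and no further RWPE-1 factor. Without the PC3 lists the ETV1-only share would have been 85.5%.

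Few regions lay less than 50 bp from the limit of the rule. The ETV1-only regions nearest to another list lay 2 bp from an ETS1 peak on chromosome 1 (242883005 to 242883493), 7 bp from an ETS1 peak on chromosome 19 (41756225 to 41756721) and 10 bp from a GABPA peak on chromosome 20 (7785093 to 7785592). The next were 11 bp from a GABPA peak on chromosome 6 (33493373 to 33493793) and 16 bp from an ETV4 peak on chromosome 3 (15676306 to 15676749). Just outside the set, 5 FLAG-ETV1 peaks met a GABPA peak by 1 bp. They lay on chromosome 1 (152180809 to 152181299), chromosome 2 (20682544 to 20682872), chromosome 5 (134268474 to 134268965), chromosome 6 (42955416 to 42955873) and chromosome 10 (91394564 to 91395064). A gap below 50 bp was found for 22 ETV1-only regions, and an overlap below 50 bp for 37 of the 1506 regions outside the set. The median overlap of the 1506 regions was 371 bp, with quartiles of 260.25 and 436 bp. Larger changes of the rule moved more regions. Joining peaks only at an overlap of 50% of both gave 7563 ETV1-only peaks. Bridging gaps of up to 1000 bp gave 6835.

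ETV1-only regions were spread evenly along the FLAG-ETV1 file, from its first rows to its last. With the rows split into 5 equal parts, they formed 82.4%, 82.2%, 82.1%, 84.3% and 82.7% of the successive parts, and the Wilson intervals of all 5 overlapped. The first 3 were on chromosome 9 (74169495 to 74169977), chromosome 7 (64445265 to 64445760) and chromosome 8 (71407641 to 71408108), which were also the first 3 rows of the file. Their nearest peaks of another list lay 49.0, 80.4 and 225.9 kb away. The FLAG-ERG file was likewise level, between 50.3% and 55.8%. In the other 4 files the first part had the lowest single-list share. It rose from 58.7% to 81.4% in the ETS1, from 49.3% to 79.3% in the ETV4 and from 48.6% to 81.8% in the JUND file, and from 82.8% to between 91.4% and 93.6% in the GABPA file. The labels do not say how rows were ordered, and whether the order means the same in the files of both antibodies was not tested.

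**Figure D1:**
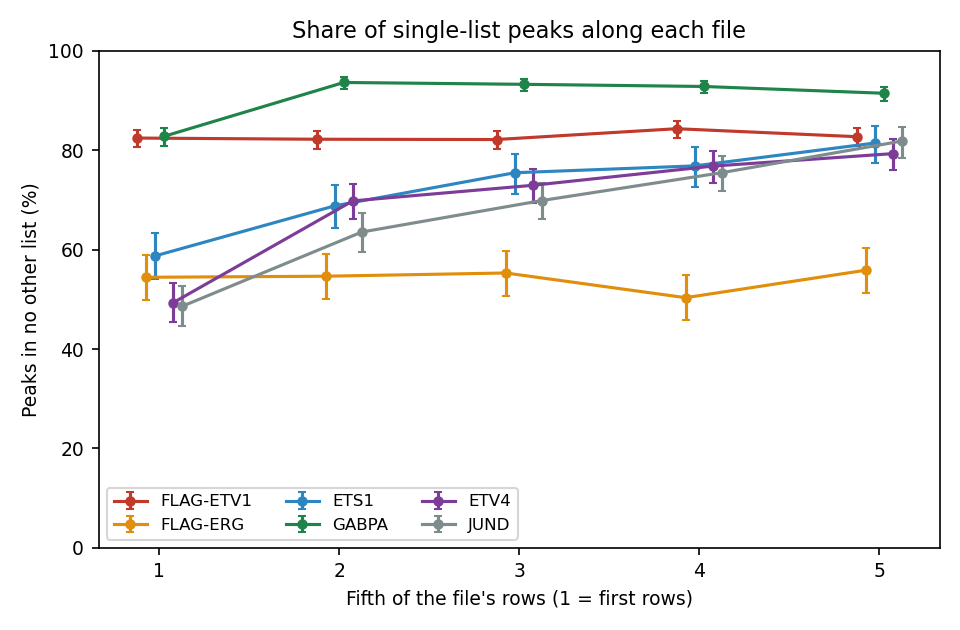
Share of peaks found in no other list (y axis, percent) in 5 successive equal parts of the rows of the 6 files (x axis), with Wilson 95% intervals as bars. The FLAG-ETV1 line stays between 82.1% and 84.3%, and the FLAG-ERG line is level as well, while those of ETS1, ETV4, JUND and GABPA start at their lowest value.

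ETV1-only peaks were slightly narrower than the FLAG-ETV1 peaks shared with another factor. Their median width was 482 bp, with quartiles of 456 and 494 bp, and the narrowest had 91 bp. Shared FLAG-ETV1 peaks had a median of 491 bp and were at least 300 bp wide. Peaks narrower than 400 bp made up 7.83% of the ETV1-only peaks (7.23 to 8.47%) and 1.06% of the shared ones (0.655 to 1.72%). A wide peak meets another more easily, so the rule itself bears on this difference, and no test was made. Among the other single-list sets, narrow peaks formed 14.1% of GABPA-only, 8.95% of ERG-only, 6.84% of JUND-only, 3.15% of ETV4-only and 2.92% of ETS1-only regions.

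Most ETV1-only regions had a region of another factor in their neighbourhood. The median gap to the nearest peak of any other list was 33.5 kb. Another factor lay within 10 kb of 1822 regions (25.2%, 24.2 to 26.2%), between 10 and 100 kb from 3616 (50.01%) and farther than 100 kb from 1792 (24.8%, 23.8 to 25.8%). By factor, the median gap was 72.9 kb to GABPA, 260.6 kb to FLAG-ERG, 288.3 kb to JUND, 297.4 kb to ETS1 and 379.7 kb to ETV4. These gaps depend on how many peaks a list has. GABPA supplied 43.2% of the peaks of the other lists and was the nearest factor for 48.8% of the ETV1-only regions (47.7 to 49.98%). FLAG-ERG and ETS1 were nearest for 14.1% and 12.9%, with 12.4% and 11.7% of the peaks. The PC3 lists came below their number, ETV4 with 11.5% of the regions against 16.8% of the peaks and JUND with 12.6% against 15.9%. Since overlapping peaks were removed by the rule, these gaps describe only the surroundings of the regions.

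**Figure D2:**
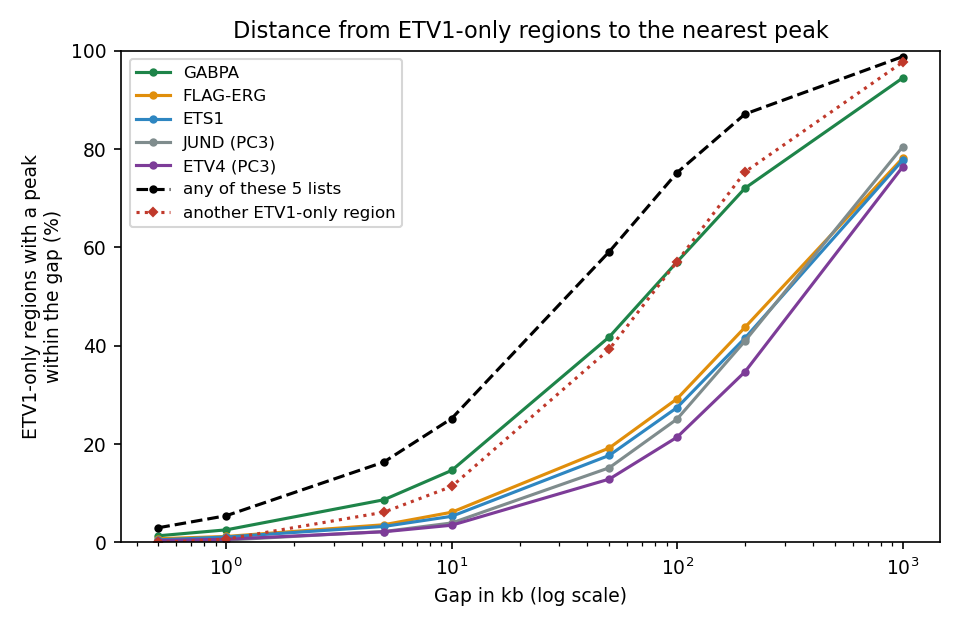
Cumulative share of the 7230 ETV1-only regions (y axis, percent) whose nearest peak of a list lies within a given gap in kb (x axis, log scale). The line for GABPA, the largest list, reaches 57.1% at 100 kb, and those of FLAG-ERG, ETS1, JUND and ETV4 reach 29.2%, 27.4%, 25.1% and 21.4%. The dashed line is any of these lists and the dotted line another ETV1-only region.

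The GABPA-only set, with 7326 regions nearest in size, was set beside the ETV1-only set for distances to the other 4 lists. Both sets lost their overlaps with these lists by the rule. FLAG-ERG peaks lay within 10 kb of 6.14% of the ETV1-only (5.61 to 6.72%) and 5.12% of the GABPA-only regions (4.64 to 5.65%). Within 100 kb the values were 29.2% (28.2 to 30.3%) and 30.5% (29.5 to 31.6%). For ETS1 they were 5.31% and 4.91% within 10 kb, with overlapping intervals, and 27.4% (26.4 to 28.5%) and 29.9% (28.8 to 30.9%) within 100 kb. Within 10 kb, ETV4 peaks were near 3.499% of ETV1-only and 3.21% of GABPA-only regions, and JUND peaks near 3.96% and 4.04%, with overlapping intervals for both. The median gap to ETV4, the PEA3 relative of ETV1, was 379.7 kb from ETV1-only and 383.1 kb from GABPA-only regions. No test was made.

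ETV1-only regions that lay far from the peaks of every other list were more often narrow. Peaks under 400 bp made up 4.39% of the regions within 10 kb of another list (3.54 to 5.43%), 6.42% of those at 10 to 100 kb (5.66 to 7.26%) and 14.2% of those beyond 100 kb (12.6 to 15.9%). The median width was 486, 482 and 474.5 bp in these classes. The share was higher beyond 100 kb than within 10 kb on 21 of 23 chromosomes. GABPA-only regions showed the same order, with 9.58%, 14.0% and 19.7%, and on 20 of 23 chromosomes. The order of the values also held in the ERG-only (7.08%, 9.74% and 13.8%), ETS1-only (1.85%, 3.35% and 4.65%), ETV4-only (0.696%, 3.71% and 4.58%) and JUND-only sets (4.46%, 6.77% and 10.6%), where the intervals of the first and last class overlapped for ERG and ETS1. By chromosome it was less regular there, with the higher share beyond 100 kb on 11 of 19 chromosomes for ERG-only, 6 of 22 for ETS1-only, 15 of 22 for ETV4-only and 14 of 23 for JUND-only regions, many of which had few regions in a class. The limit of 400 bp was chosen after seeing the data.

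**Figure D3:**
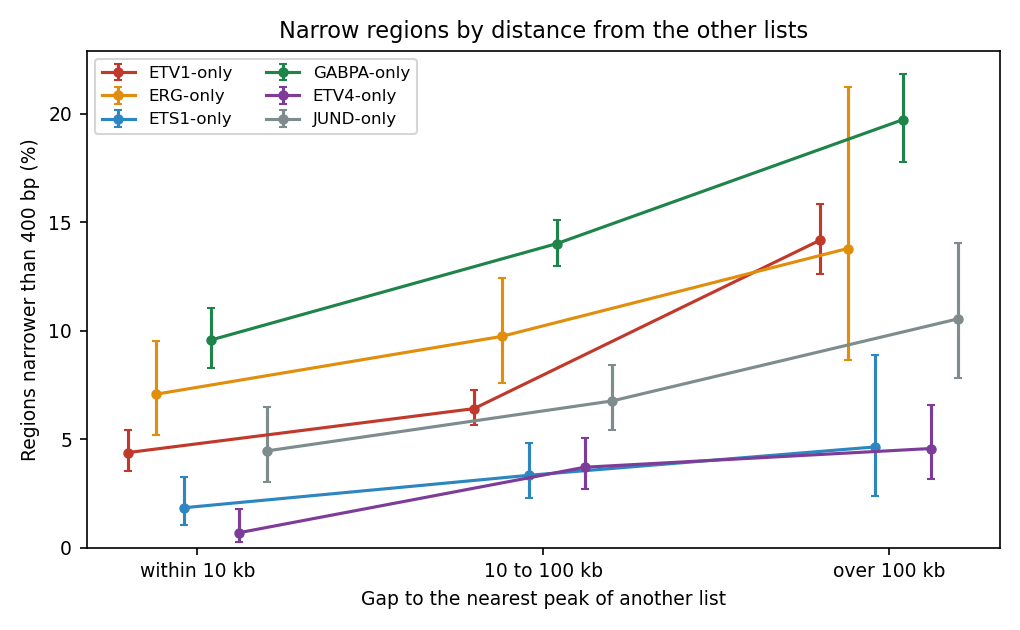
Share of regions narrower than 400 bp (y axis, percent) in the 6 single-list sets by the gap to the nearest peak of another list (x axis), with Wilson 95% intervals as bars. ETV1-only regions go from 4.39% within 10 kb to 14.2% beyond 100 kb, and every other set also has its highest value beyond 100 kb.

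The far regions were unevenly placed. Of the ETV1-only regions of chromosome 4, 58.7% lay beyond 100 kb of any other factor (52.3 to 64.8%), as did 58.4% of those of X (47.3 to 68.8%), 44.7% of those of chromosome 13 and 43.1% of those of chromosome 18. On chromosome 19 the value was 7.38% (4.83 to 11.1%), on chromosome 20 it was 7.91%, on chromosome 17 it was 14.4% and on chromosome 22 it was 22.8% (14.9 to 33.2%). Chromosomes 17, 19 and 22 are known as rich in genes and 4, 13 and 18 as poor in them. The gene-rich group held 12.0% of the ETV1-only regions within 10 kb of another factor and 5.13% of those beyond 100 kb. The gene-poor group held 1.87% of the former and 13.2% of the latter. The measure counts peaks of the other lists, whose number also differs between chromosomes.

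Per chromosome, ETV1-only regions were densest on chromosome 20, with 56.9 per 10 Mb of the span between the outermost peaks of all lists, followed by chromosome 17 with 47.9, chromosome 19 with 42.7 and chromosome 10 with 39.8. X had 5.15 and chromosome 18 had 9.46. By number, chromosome 1 came first with 818 regions, 11.3% of the set. Y held 2 and was left out of the shares, which are over the other 23 chromosomes. The ETV1-only part of the FLAG-ETV1 list was smallest on chromosome 20, 73.1% of its 484 regions (69.0 to 76.9%), and largest on X, 96.2% of 80 (89.5 to 98.7%). On chromosome 1 it was 80.4% of 1017.

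Relative to the mean share of the 6 single-list sets, ETV1-only regions were highest on chromosome 13 (2.10% of the set, 1.33 times the mean), chromosome 9 (6.05%, 1.23 times) and chromosome 15 (3.28%, 1.22 times). They were lowest on chromosome 18 (0.996%, 0.627 times), chromosome 8 (3.74%, 0.684 times) and chromosome 3 (4.04%, 0.764 times). The PC3 sets, which enter this mean, were high on these last chromosomes. On chromosome 3 the ETV1-only share was above those of the other RWPE-1 sets, which were 3.35% for ERG-only, 3.18% for ETS1-only and 3.40% for GABPA-only regions. ETV4-only and JUND-only regions held 10.3% and 7.44% on chromosome 3 and 7.998% and 8.63% on chromosome 8. On chromosome 9 they held 2.33% and 2.48%. The ETV1-only share lay within the range of the ERG-only, ETS1-only and GABPA-only sets on 14 of 23 chromosomes, and within that of the PC3 sets on 4. The first range spans more sets than the second, so these counts are not directly comparable. Cell line, factor, antibody and retroviral expression cannot be told apart in these differences of ETV1-only regions from PC3. Neither ETV4 nor JUND was mapped in RWPE-1, and neither was tagged with FLAG or expressed from a retrovirus. 

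**Figure D4:**
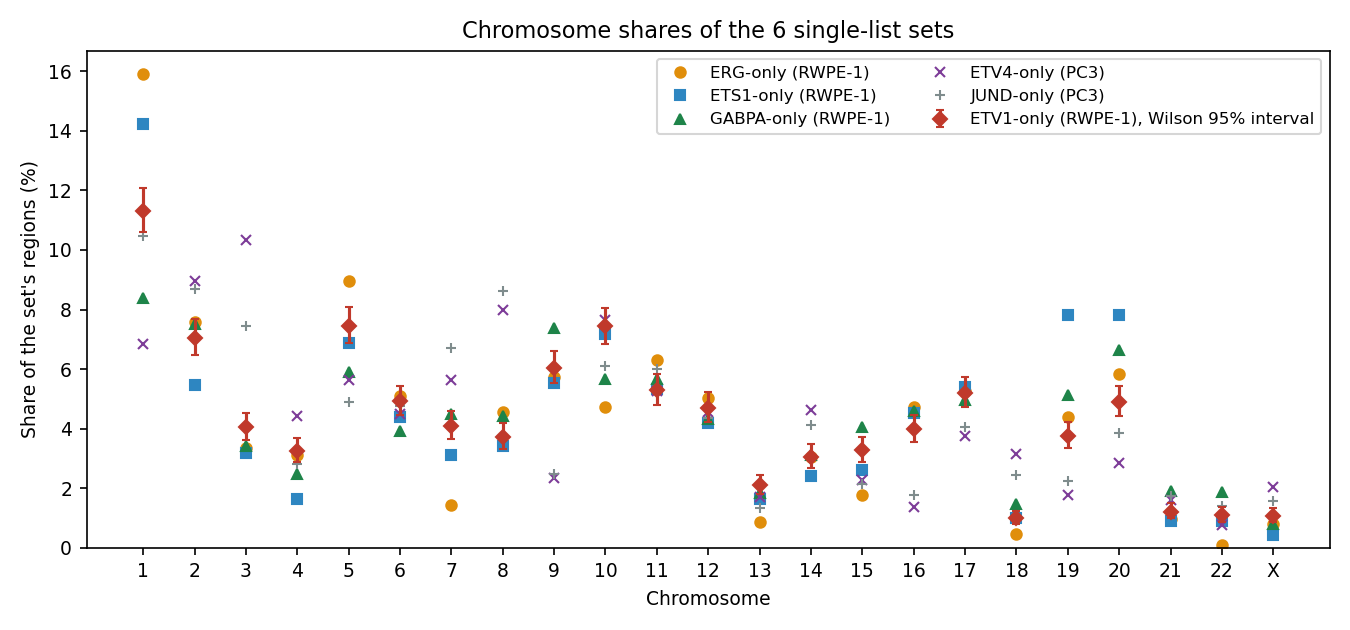
Share of each single-list set on each chromosome (y axis, percent; x axis, chromosomes 1 to 22 and X). Diamonds with Wilson 95% intervals are the ETV1-only regions, filled symbols the other RWPE-1 sets, and crosses and plus signs the PC3 sets, which stand above the diamonds on chromosomes 3 and 8 and below them on chromosome 9.

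The chromosome shares of the ETV1-only regions were then tested against those of the other RWPE-1 sets, none of which holds a region in common with them. The rule did not choose by chromosome, but it took different parts of the lists on different chromosomes, from 73.1% of FLAG-ETV1 on chromosome 20 to 96.2% on X, so these shares are not independent of it. With all peaks of each list and the rule not applied, an alternative added after seeing the data, 8 chromosomes differed from the FLAG-ERG list, 6 from the ETS1 list and 12 from the GABPA list. These included all 6, 4 and 12 chromosomes called below, in the same direction, but most FLAG-ETV1 peaks enter both versions. Each chromosome was tested by Fisher's exact test, and p was adjusted over 69 tests. Regions are the units of this test, and neighbouring regions are not independent, so p describes these lists and is too small for a statement about factors. The test was also repeated with regions of a set that lie within 50 kb of each other counted once. This repeat does not remove dependence over longer distances. Its units are still regions of libraries without replicate, so its p too describes these lists only. A call that remained in the repeat is thus no statement about factors either.

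Against the ERG-only set, which comes from the same FLAG antibody, 6 of 23 chromosomes differed (26.1%), with the ETV1-only share higher on 5 and lower on 1. Chromosome 7 held 4.10% of the ETV1-only and 1.44% of the ERG-only regions (odds ratio 2.93, 95% interval 1.81 to 5.03; exact test, adjusted p = 1.30e-05). Chromosome 22 held 79 ETV1-only regions and 1 ERG-only region (odds ratio 13.8, 2.40 to 553.3; exact test, adjusted p = 0.000614). ERG-only had the lowest share of all single-list sets on both chromosomes. On chromosome 7, ETS1-only, GABPA-only, ETV4-only and JUND-only regions held 3.11%, 4.50%, 5.62% and 6.69%. On chromosome 22 they held 0.889%, 1.89%, 0.777% and 1.39%. ETV1-only shares were also higher on chromosomes 10, 13 and 15 and lower on chromosome 1, with 11.3% against 15.9% (odds ratio 0.675, 0.570 to 0.803; exact test, adjusted p = 0.000103). With clustered regions counted once the call on chromosome 10 ended (exact test, adjusted p = 0.213) and the other 5 remained. Chromosome 20 was then called as well, with 4.03% of the ETV1-only and 6.01% of the ERG-only units (odds ratio 0.657; exact test, adjusted p = 0.0253). With every region counted it was not called (exact test, adjusted p = 0.328). Counting once took chromosome 20 from 354 to 223 ETV1-only and from 73 to 67 ERG-only units. On chromosome 10 these went from 537 to 346 and from 59 to 54. The larger set thus lost more units, and whether the changed calls follow from this was not tested.

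Against the ETS1-only set, 4 of 23 chromosomes differed (17.4%). ETV1-only regions were rarer on the gene-rich chromosome 19, with 3.75% against 7.81% (odds ratio 0.460, 0.367 to 0.578; exact test, adjusted p = 4.02e-09). ETS1-only had the highest share of all single-list sets there. The others were 5.12% for GABPA-only, 4.39% for ERG-only, 2.23% for JUND-only and 1.78% for ETV4-only. ETV1-only regions were also rarer on chromosome 20, with 4.90% against 7.81% (odds ratio 0.608, 0.489 to 0.758; exact test, adjusted p = 0.000103), and on chromosome 1. On chromosome 4 they were more frequent, with 3.25% against 1.65% (odds ratio 2.001, 1.33 to 3.14; exact test, adjusted p = 0.00211). On chromosome 1 the odds ratio was 0.769, and 0.807 with clustered regions counted once, where the call ended (exact test, adjusted p = 0.0762).

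Against the GABPA-only set, 12 of 23 chromosomes differed (52.2%), 5 with a higher and 7 with a lower ETV1-only share. Counting clustered regions once left 5 of these calls, on chromosomes 1, 5, 19, 22 and 18. In that repeat the odds ratios were 1.26, 1.25, 0.665, 0.633 and 0.598 in this order. Adjusted p of the exact test was then 0.00451, 0.0247, 0.000882, 0.0247 and 0.0141. Of these 5, with every region counted, the ETV1-only share was higher on chromosome 1 (11.3% against 8.40%, odds ratio 1.39, 1.24 to 1.56; exact test, adjusted p = 1.42e-07). It was also higher on chromosome 5 (7.46% against 5.92%, odds ratio 1.28, 1.12 to 1.46; exact test, adjusted p = 0.00125). It was lower on chromosome 19 (3.75% against 5.12%, odds ratio 0.721, 0.612 to 0.849; exact test, adjusted p = 0.000566), on chromosome 22 (1.09% against 1.89%, odds ratio 0.575, 0.430 to 0.765; exact test, adjusted p = 0.000614) and on chromosome 18 (0.996% against 1.46%, odds ratio 0.678, 0.495 to 0.925; exact test, adjusted p = 0.0403). The calls on chromosomes 4, 6, 10, 15, 20 and 21 ended, and on chromosome 9 the direction turned, from an odds ratio of 0.806 to one of 1.11 (exact test, adjusted p = 0.444). Chromosome 19 was thus lower in ETV1-only regions than in both sets of endogenous ETS factors, and chromosome 22 was lower than in the GABPA-only but higher than in the ERG-only set. On chromosome 19 the ERG-only share, also from FLAG, was 4.39% and was not called different (exact test, adjusted p = 0.427). Factor, antibody and retroviral expression cannot be told apart in the comparisons with ETS1-only and GABPA-only regions.

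As a group, the gene-rich chromosomes held 10.04% of the ETV1-only regions (9.37 to 10.8%). This compares with 14.1% of ETS1-only (12.5 to 15.9%), 12.0% of GABPA-only (11.2 to 12.7%), 9.74% of ERG-only (8.22 to 11.5%), 7.68% of JUND-only and 6.31% of ETV4-only regions. The gene-poor group held 6.35% of the ETV1-only regions (5.81 to 6.94%), 5.78% of GABPA-only (5.27 to 6.34%), 4.47% of ERG-only (3.46 to 5.76%) and 4.32% of ETS1-only regions (3.42 to 5.44%). The PC3 sets had more there, with 9.28% of ETV4-only (8.13 to 10.6%) and 6.59% of JUND-only regions (5.59 to 7.76%). Among the FLAG-ETV1 regions shared with another factor, 11.2% lay on the gene-rich (9.66 to 12.8%) and 4.25% on the gene-poor chromosomes (3.34 to 5.39%). The chromosomes of a group did not all go the same way. Chromosome 17 held 5.20% of ETV1-only, 5.40% of ETS1-only and 4.96% of GABPA-only regions. Chromosome 19 held 3.75%, 7.81% and 5.12% in this order, and chromosome 22 held 1.09%, 0.889% and 1.89%. On chromosome 18 the ETV1-only share was below that of GABPA-only (0.996% against 1.46%). On chromosomes 4 (3.25% against 2.49%) and 13 (2.10% against 1.83%) it was above.

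In windows of 5 Mb, the number of ETV1-only regions ran along with that of the other RWPE-1 sets and less with that of the PC3 sets. Over 594 windows Spearman's rho was 0.75 with GABPA-only, 0.70 with ETS1-only and 0.69 with ERG-only regions, and 0.42 with JUND-only and 0.18 with ETV4-only regions. Pearson's r was 0.77, 0.74, 0.73, 0.32 and 0.10 in that order. The windows share gene density, mappability and the copy number of the line, and sets of few regions leave many windows empty, so the values are a description of these lists.

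The 10 densest windows of 1 Mb held 16 to 19 ETV1-only regions each. The first was chromosome 20 from 48000001 to 49000000, with 19 ETV1-only regions among 61 regions of all lists, 23 of them with GABPA, 10 with ETS1 and 7 with FLAG-ERG. Next came chromosome 1 from 199000001 to 200000000, with 18 of 72. There FLAG-ERG was in 20 regions, a count that includes regions shared with other lists. The window also held 9 shared FLAG-ETV1 regions, which the ETV1-only count leaves out. Chromosome 17 gave 2 of the windows, from 7000001 to 8000000 with 18 of 43 regions and from 17000001 to 18000000 with 17 of 33. In the latter ETV1-only regions formed 51.5%, the highest share of the 10. The other windows with 17 lay on chromosome 9 from 135000001 to 136000000, chromosome 11 from 63000001 to 64000000, chromosome 20 from 36000001 to 37000000 and chromosome 21 from 43000001 to 44000000. On chromosome 9 GABPA was in 32 of the 52 regions, and on chromosome 21 no region held ETS1. The windows of chromosome 8 from 145000001 to 146000000 and chromosome 10 from 71000001 to 72000000 had 16, a count that 6 windows beyond these 10 also reached. All 10 windows held GABPA and FLAG-ERG regions.

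**Figure D5:**
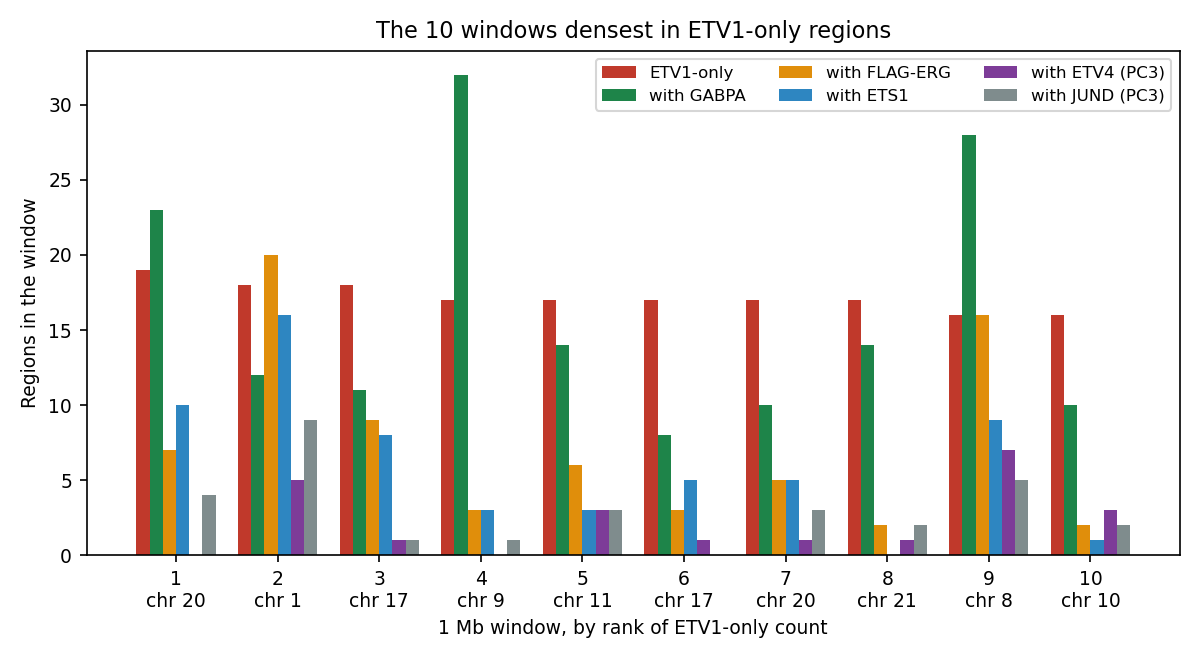
Number of regions (y axis) in the 10 windows of 1 Mb with the most ETV1-only regions (x axis, rank and chromosome), for ETV1-only regions and for regions holding a peak of each other list. GABPA exceeds the ETV1-only count in the windows ranked 1, 4 and 9, and FLAG-ERG in the window ranked 2. Bars of the other lists include shared regions, and shared FLAG-ETV1 regions are not drawn. The latter number 6, 9, 7 and 6 in the windows ranked 1, 2, 4 and 9.

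Over the genome, ETV1-only regions occurred in 2130 of the 2632 windows that held any region, GABPA-only regions in 1870. Windows with 10 or more regions of the set numbered 98 for ETV1-only and 166 for GABPA-only, and held 17.1% and 33.4% of the 2 sets. The highest window had 19 ETV1-only against 40 GABPA-only regions. ETV1-only regions were thus spread over more windows than a set of nearly the same size. The rule kept 82.8% of the FLAG-ETV1 and 90.8% of the GABPA peaks. Of FLAG-ETV1 regions it kept 73.1% on chromosome 20 and 96.2% on X. Whether this removal bears on the spread was not tested, nor were the whole lists compared in windows. In the 283 windows with at least 20 regions, ETV1-only regions made up a median of 27.6% (quartiles 21.6 and 33.3%, lowest 5%, highest 60%).

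At shorter range ETV1-only regions also stood farther apart. Another ETV1-only region lay within 10 kb of 11.4% of them (10.7 to 12.1%), whereas 17.8% of the GABPA-only regions had one of their own set this near (16.9 to 18.7%). The median gap to the nearest region of the same set was 76.7 kb for ETV1-only and 49.7 kb for GABPA-only regions. The rule removed shared peaks from both lists, and whether this bears on the gaps was not tested. The lowest gap between ETV1-only regions was 538 bp, and the lowest within any of the 6 lists was 505 bp. ETV1-only regions beyond 100 kb of the other lists had a neighbour of their own set within 10 kb in 4.02% (3.20 to 5.03%), and those within 10 kb of another list in 19.4% (17.6 to 21.3%).

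Chains in which each ETV1-only region lay within 10 kb of the next were short. There were 350 pairs, 33 chains of 3 and 6 chains of 4, and none was longer, while GABPA-only regions formed chains of up to 7. All 6 chains of 4 are named, since they tie. The tightest spanned 9123 bp on chromosome 5 (134398892 to 134408014), with gaps of 923, 2115 and 4164 bp between its regions, and had 2 ETS1 peaks and 1 GABPA peak within 10 kb. Others lay on chromosome 1 (203666321 to 203692449), chromosome 9 (131406615 to 131422373 and 136397965 to 136412252), chromosome 10 (106060212 to 106081679) and chromosome 12 (6508733 to 6528147). No ETV4 or JUND peak lay within 10 kb of any of these 6 chains, and each had a peak of at least 1 other RWPE-1 list that near. Of all ETV1-only regions, 3.50% had an ETV4 peak, 3.96% a JUND peak and 21.6% a peak of another RWPE-1 list within 10 kb. These shares are per region, and a chain covers a wider stretch. With 6 chains, absence of the rarer PC3 peaks tells little. In the file, the 4 regions of the chain on chromosome 5 were rows 57, 2335, 6031 and 6760. In the chain on chromosome 10 they were rows 7942, 6222, 7596 and 7621, of which the last pair lay close together.

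Windows of 1 Mb that held ETV1-only regions and no region of any other list numbered 196 and contained 303 regions, 4.19% of the set. The fullest was chromosome 3 from 136000001 to 137000000, with 6 regions. They started at 136048422, 136234072, 136386637, 136841324, 136871194 and 136997887, and their nearest peaks of another list lay between 363.1 and 701.4 kb away. Chromosome 13 from 36000001 to 37000000 had 4 regions, as did chromosome 17 from 11000001 to 12000000. On chromosome 13 the regions started at 36166192, 36344780, 36531375 and 36864541, and the nearest peak of another list was 1153 kb from the last of them. Of the 20 windows with 3 regions, the first by position were chromosome 1 from 74000001 to 75000000 and chromosome 2 from 103000001 to 104000000. The most isolated regions, measured to any peak of the 6 lists, were on Y (57412848 to 57413328), on chromosome 9 (43624938 to 43625173), which was 236 bp wide and lay 5014 kb from the next peak, and on X (87807814 to 87808304), 3689 kb from the next. The region of chromosome 9 was row 1056 and that of X row 841 of the file.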

How the data were processed

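ChIP-seq libraries of 6 factors in 2 prostate lines were compared through the peak lists the authors deposited, each with 3 columns (chromosome, start, end), on hg18 per the labels. The deposited columns hold positions and no score. Aligner, caller, control library and calling threshold were not given in the sources used here, so depth is unknown. Samples were grouped by title. Starts were read as counted from 0 and are printed counted from 1. Peaks sharing 1 bp were merged, gaps were measured edge to edge, windows were assigned by midpoint, and shares carry Wilson 95% intervals. Chromosome shares were compared by two-sided Fisher's exact tests with Benjamini-Hochberg adjustment (threshold 0.05). Merging, gaps and this test were tested on simulated data. Named regions followed a rule: the densest windows, the windows without another list, the longest chains, the regions at the edge of the definition, the most isolated regions and the first rows. The members and lists were chosen with earlier results of these data known. The narrow-width classes and the row order of the other files were added after seeing the data. Motif and promoter shares and protein comparisons were planned and not run, as no sequence of hg18 was at hand. Tests were run with scipy 1.17.1 under Python 3.11.15, tables were handled with pandas 2.3.3 and numpy 2.4.6, and figures were drawn with matplotlib 3.10.9.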

Additional observations from a re-analysis of the deposited data

How the results depend on the processing

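With 1 library per factor no replicate could be left out, and no paired analysis was possible because no factor has a second sample. The ETV1-only share of the FLAG-ETV1 list was 82.8%. It was 86.6% when peaks had to overlap by 50% of both, 80.3% and 78.2% when gaps of up to 500 and 1000 bp were bridged, 85.5% with the RWPE-1 lists alone, 86.2% without the GABPA list and 87.4% without the FLAG-ERG list. The number of chromosomes that differed from the GABPA-only set fell from 12 to 5 with clustered regions counted once, where odds ratios moved as well, and the cause was not tested. The comparisons with the ERG-only and ETS1-only sets stayed within 1.5 times of their counts under each alternative run. The share with another ETV1-only region nearby was 11.4% at 10 kb, 6.14% at 5 kb, 39.3% at 50 kb and 57.1% at 100 kb. The share without another list nearby was 24.8% at 100 kb, 74.8% at 10 kb, 40.9% at 50 kb, 12.9% at 200 kb and, at 100 kb from the RWPE-1 lists alone, 32.8%. Spearman's rho with the GABPA-only, ETS1-only, ERG-only, JUND-only and ETV4-only sets was 0.51, 0.42, 0.42, 0.19 and 0.031 over 1 Mb windows, 0.80, 0.79, 0.76, 0.49 and 0.27 over 10 Mb windows, and 0.73, 0.69, 0.68, 0.38 and 0.11 over 5 Mb windows of autosomes. The order of the sets by rho changed in no alternative beyond the near tie of ETS1-only and ERG-only at 1 Mb. The ratio of narrow shares beyond 100 kb and within 10 kb was 3.23 for a limit of 400 bp, 4.72 for 350 bp and 1.96 for 450 bp, limits chosen after seeing the data. Motif and promoter shares were not run. The lists carry no height, so weak and strong regions weigh alike.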
